A study of Mus musculus with 24 samples.

Results

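Thyroid hormone acts on fat cells through a short relay, and 6 genes of it were examined here: the receptors Thra and Thrb, the deiodinase Dio2, the receptor-binding coregulators Med1 and Ncor1, and the responsive gene Thrsp. They are 6 of 52089 gene symbols in the deposited expression table, taken by symbol, and each is represented by its RefSeq coding entry with the highest mean level over 24 libraries. All libraries were made from primary brite adipocytes, white fat cells driven toward a brown-like state, which were prepared as stromal-vascular preadipocytes of the inguinal fat pad of 129SvEv mice. Per the labels and methods, every group shared the same induction, a differentiation medium with rosiglitazone, insulin and T3, and a transfection at 50 nM with an LNA gapmer, a short antisense strand that makes RNase H cut the RNA it pairs with. The KD groups received the gapmer against the long noncoding RNA Ctcflos and the NC groups a nontargeting one, and cells were harvested 24 h or 72 h afterwards, giving 4 groups of 6 libraries.

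Thyroxine, the main circulating form of the hormone, is turned into the active form T3 inside cells by type 2 deiodinase, the product of Dio2, which brown fat switches on under adrenergic stimulation. T3 binds the nuclear receptors TRα and TRβ, encoded by Thra and Thrb, which sit on DNA with a retinoid X receptor. Without hormone the receptors hold a corepressor complex built around NCoR1, and with hormone they exchange it for coactivators and for the Mediator complex, which they contact through MED1. In brown and brite fat T3 is known to act with cAMP signals on Ucp1, the uncoupling protein, and on the genes of fatty acid synthesis, among them Thrsp, which encodes the lipogenic protein Spot 14. T3 itself was in the medium of every group here, per the methods.

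Depth differed between libraries, from 1391832 to 5926375 mapped reads recovered from the table with a median of 4009998, and the highest of these may be counted double because only 21.1% of its read numbers were odd. Replicates 2 and 3 of NC 72 h differed by less than sampling noise (chi-square per degree of freedom 0.35, against 2.03 for the next closest pair) and were averaged to 1 sample, which left 5 samples in that group. By their deviations from the group means the libraries split in 2 clusters, a larger one holding 16 and a smaller one holding 8, that is 2 from every group. The labels name no batch, so values within each cluster are given where they matter. The RefSeq entry of Ctcflos averaged 0.189 RPKM ± 0.244 (SD, n = 6) in KD 24 h against 0.741 ± 0.515 (n = 6) in NC 24 h, and 0.231 ± 0.22 (n = 6) in KD 72 h against 1.23 ± 0.408 (n = 5) in NC 72 h. Its groups overlapped at 24 h, with KD up to 0.62 RPKM and NC from 0.178. The Ensembl entry of transcript 1, named in the paper among the gapmer targets, averaged 0.239 ± 0.375 in KD 24 h against 0.402 ± 0.232 in NC 24 h. KD reached 0.961 there and NC 0.792. At 72 h that entry averaged 0.116 ± 0.202 in KD against 1.38 ± 0.932 in NC, again with overlap. RPKM are reads scaled to transcript length in kilobases and to the total of mapped reads. The study calls its replicates biological, and since neither it nor the labels say whether they were separate animals or cultures, the p-values measure the spread between these samples.

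Adipocyte markers (Adipoq, Fabp4, Plin1, Pparg, Lpl, Cidec) summed to between 28200 and 54500 RPKM over all samples, whereas endothelial and epithelial markers summed to at most 1.66. Most of the adipocyte sum was Fabp4, which averaged from 28400 RPKM in KD 72 h to 43000 in NC 24 h. Of the 6 adipocyte markers, 2 were lower in KD at 24 h and 3 at 72 h, and all 4 brite markers (Ucp1, Cidea, Elovl3, Cox7a1) were lower at both times. Of all genes tested, 11.8% were lower at 24 h and 12.9% at 72 h. The brite sum ran from 297 to 474 RPKM in KD 24 h against 421 to 847 in NC 24 h, and from 423 to 845 in KD 72 h against 1210 to 1970 in NC 72 h. Of the preadipocyte markers, 2 of 4 tested were higher in KD at 72 h, Pdgfrb and Cd34, where 10.3% of all genes tested were higher. The preadipocyte sum ran from 355 to 824 RPKM in KD 24 h against 388 to 969 in NC 24 h. At 72 h that sum ran from 771 to 912 in KD against 332 to 910 in NC. The sum of 5 macrophage markers ran from 2.74 to 16.5 RPKM in KD 24 h against 4.52 to 24.9 in NC 24 h, and from 6.79 to 11.5 in KD 72 h against 6.95 to 27.9 in NC 72 h, with Adgre1 and Ptprc averaging under 0.5. The 2 that were tested moved in opposite directions, Csf1r higher in KD at both times (1.22 and 1.24 on the log2 scale) and Lyz2 lower at 72 h (−3.68 ± 0.59, limma, adjusted p = 0.00066; −2.41 ± 0.96 at 24 h, adjusted p = 0.083). The part of these differences in cell state in the changes described below was not tested, and in bulk RNA fewer cells of a type and less RNA per cell cannot be told apart.

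Promoter stretches of Thrb and Thrsp, picked because their fitted changes were the largest of the 6, and of the deiodinase are shown first, since the receptor itself and the cAMP pathway read such sequence. They are from RefSeq (GRCm38.p6), reach back 250 bases from the RefSeq start site, and stop where an annotated exon of the gene begins. The Thrb stretch lies inside the annotated span of that gene, which starts at 17660261, and so is not upstream of the gene start. Capitals mark a match to the receptor half-site AGGTCA or to the full cAMP response element TGACGTCA.
Thrb, chr14:17660710-17660891, plus strand: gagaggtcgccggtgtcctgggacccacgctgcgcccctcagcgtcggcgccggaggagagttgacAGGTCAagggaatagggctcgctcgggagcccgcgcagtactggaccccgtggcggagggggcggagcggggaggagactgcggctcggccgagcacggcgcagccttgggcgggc
Thrsp, chr7:97417731-97417800, minus strand: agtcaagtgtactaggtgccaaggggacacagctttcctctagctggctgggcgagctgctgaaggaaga
Dio2, chr12:90739039-90739288, minus strand: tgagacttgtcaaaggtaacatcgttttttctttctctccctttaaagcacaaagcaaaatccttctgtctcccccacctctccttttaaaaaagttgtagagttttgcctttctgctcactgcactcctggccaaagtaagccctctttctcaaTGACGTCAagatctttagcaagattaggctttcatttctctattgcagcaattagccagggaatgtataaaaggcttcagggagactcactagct

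Windows were found for 5 of the 6 genes (7 windows, with a second one each for Thrb and Ncor1) and Thra had none. Searched on both strands in the 250 bases before the start, the half-site AGGTCA occurred in 1 of the 7 windows, the Thrb window above, where it begins 184 bases before the start, and in 14.0% of 32851 RefSeq windows of the same length. The full response element made of 2 half-sites in the same direction, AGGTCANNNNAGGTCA, was in none of the 7 and in 0.0152% of all windows. At so low a share, its absence from 7 windows does not tell whether these genes have a response element. The element TGACGTCA was in the Dio2 window, beginning 95 bases before the start, and in 1.55% of all windows. A match is a description of these letters and not a measured site.

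Thrb, the gene of TRβ, was lower in the knockdown at both times. The deposited level in KD 24 h ran from 0.515 to 1.37 RPKM with a median of 0.924, and in NC 24 h from 1.84 to 2.55 with a median of 2.27. In KD 72 h it ran from 0.301 to 0.662 with a median of 0.541, and the 5 samples of NC 72 h read 2.18, 1.31, 2.18, 1.47 and 1.77. The KD and NC groups did not overlap at either time, as was so, in that direction, for 6.0% of the genes tested at 24 h and 3.37% at 72 h. The fitted change was −1.26 ± 0.26 (SE) on the log2 scale at 24 h (limma, adjusted p = 0.0039) and −1.86 ± 0.25 at 72 h (adjusted p = 0.00022), which puts the KD level at 41.8% and 27.6% of the control. Behind these levels stood 148 reads over the 6 libraries of KD 24 h, 347 in NC 24 h, 68 in KD 72 h and 252 in NC 72 h.

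**Figure D1:**
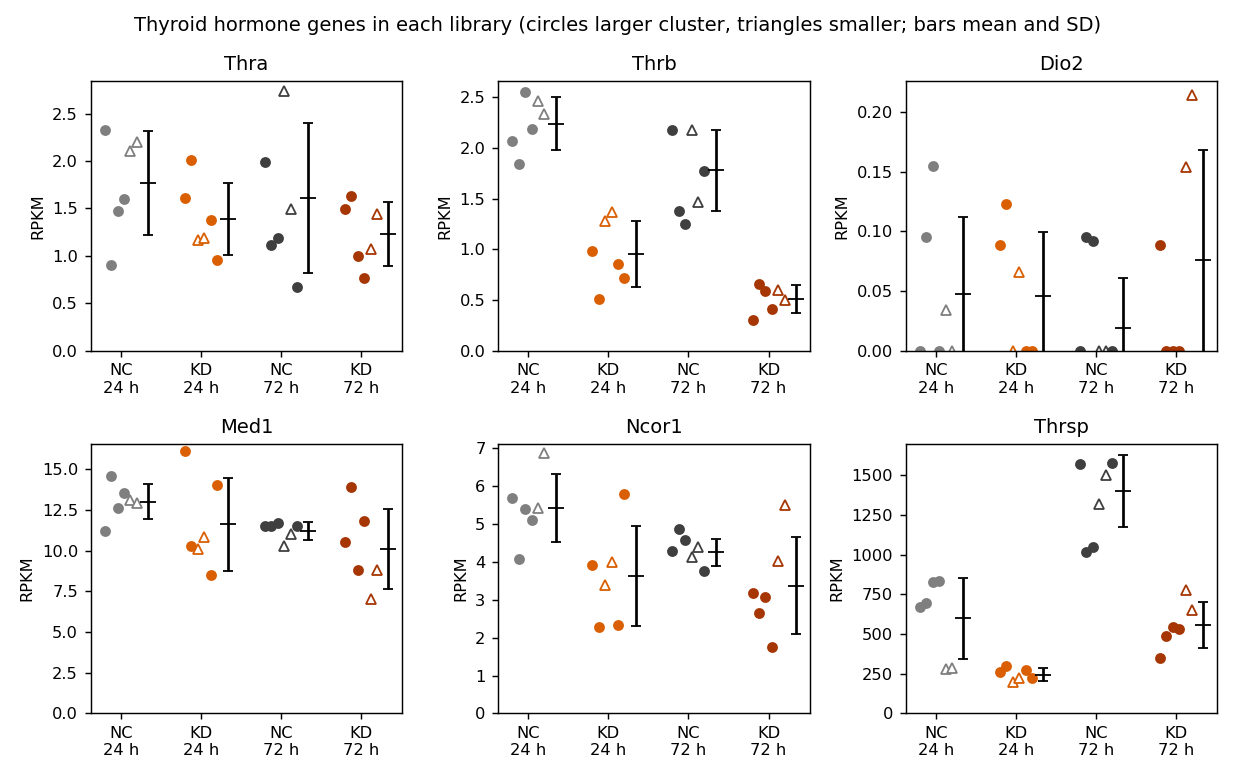
RPKM (vertical axes, linear from 0) of the 6 genes in every library by group (horizontal axes); circles are libraries of the larger cluster, open triangles those of the smaller, and bars give the group mean and SD with replicates 2 and 3 of NC 72 h averaged. Thrb lies lower in KD than in NC at both times without overlap, Thrsp overlaps at 24 h only through 2 control libraries, and Dio2 stays below 0.22 RPKM in all libraries, its highest value being 0.214.

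The 2 RefSeq coding entries of Thrb share most of their length and gave nearly the same answer, −1.24 (adjusted p = 0.0054) and −1.83 (adjusted p = 0.00027) for NM_009380. Within the larger cluster alone the change of Thrb was −1.51 at 24 h (limma, adjusted p = 0.0056) and −1.86 at 72 h (adjusted p = 0.0046). In the smaller cluster it was −0.8 at 24 h, which did not pass (adjusted p = 0.23), and −1.84 at 72 h (adjusted p = 0.041). The larger drop at 72 h was not separable from that at 24 h, since the difference between the changes was −0.58 ± 0.35 (limma interaction, adjusted p = 0.54, 95% interval −1.31 to 0.15). In the controls Thrb differed by −0.31 ± 0.2 between 72 h and 24 h (adjusted p = 0.4).

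Thrb is a long gene, spanning 377.8 kb of chromosome 14 (GRCm38, 17660261 to 18038090, plus strand), and long genes were lower in KD more often than short ones. Of the genes tested with an annotated span (83.3% of them at 24 h and 83.9% at 72 h), 55.8% of those over 200 kb were called lower at 24 h and 40.7% at 72 h. Among those under 50 kb the shares were 8.14% and 10.2%. The median change of genes over 200 kb was −0.86 at 24 h and −0.61 at 72 h, beside −1.26 and −1.86 for Thrb. The part of gene length in the Thrb change was not tested. Nor was it for the genes of the lists below, whose counts are set against all genes tested, whatever their span.

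Thra, the gene of TRα, overlapped between the groups at both times. Its entry ran from 0.96 to 2.01 RPKM in KD 24 h with a median of 1.28, and from 0.903 to 2.33 in NC 24 h with a median of 1.85. It ran from 0.767 to 1.63 in KD 72 h with a median of 1.25, and the samples of NC 72 h read 1.99, 1.15, 2.74, 1.49 and 0.676. The fitted change was −0.36 ± 0.27 at 24 h (limma, adjusted p = 0.34, 95% interval −0.93 to 0.21) and −0.5 ± 0.32 at 72 h (adjusted p = 0.29, 95% interval −1.18 to 0.19). Both intervals hold 0 as well as a drop of the size fitted for Ncor1 below. The entry had 3 to 24 reads in a library, so only large changes were detectable.

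The balance of the receptors could be read within each library, where scaling between libraries drops out. The log2 difference of Thrb and Thra (each RPKM + 0.1) was −0.52 ± 0.71 (SD, n = 6) in KD 24 h and 0.38 ± 0.42 (n = 6) in NC 24 h. At 72 h it was −1.12 ± 0.51 (n = 6) in KD and 0.25 ± 0.6 (n = 5) in NC. The shift of −0.9 at 24 h gave p = 0.019 in a two-sided exact permutation test over 924 arrangements, and that of −1.37 at 72 h gave p = 0.0022 over 462, the smallest p this design allows. The groups overlapped at 24 h (highest KD library 0.19, lowest NC library −0.16) and not at 72 h (−0.69 and −0.32). At 24 h the shift was −0.53 without replicate 2 of both groups (exact p = 0.071) and −0.91 without replicate 5 (exact p = 0.056).

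**Figure D2:**
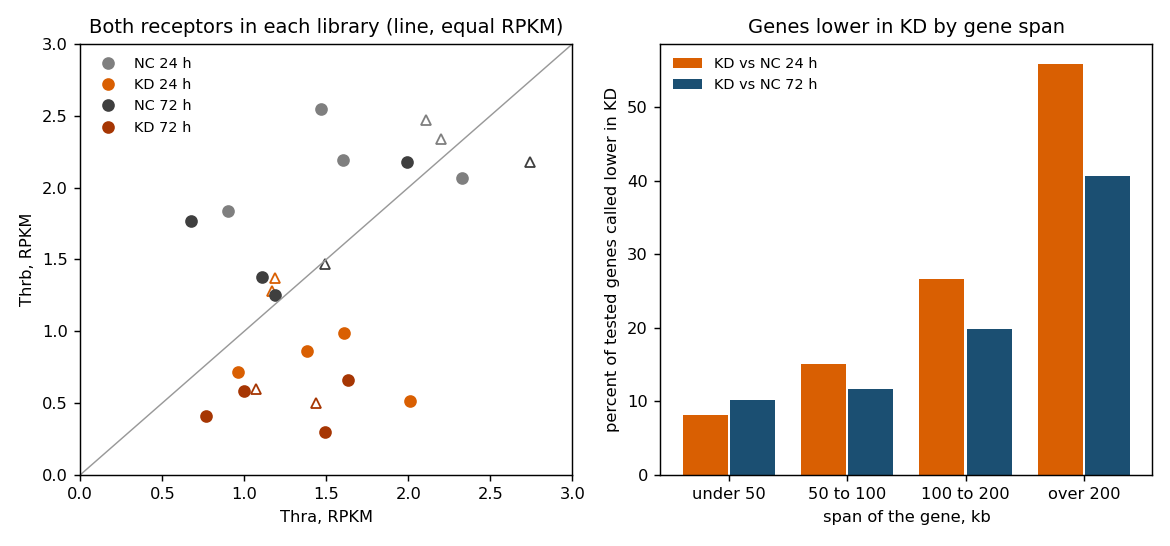
Left, Thrb against Thra in RPKM (linear axes from 0) for every library, filled circles for the larger cluster and open triangles for the smaller, with a line of equal RPKM; right, the percent of tested genes called lower in KD at each time by annotated gene span in kb. All KD 72 h libraries lie below the line, but which side a library falls on depends on dividing reads by entry length. The share of genes called lower rises from 8.14% to 55.8% with span at 24 h and from 10.2% to 40.7% at 72 h.

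Thra makes a second messenger end that codes for a form unable to bind T3, and this end runs into Nr1d1, the gene of the clock repressor REV-ERBα, on the opposite strand. On GRCm38 the transcript matched by length to the entry used above ends at position 98765111 of chromosome 11 and shares 0 exon bases with Nr1d1. The longer one ends at 98769006 and shares 263 exon bases with it, and since strand handling was not stated, reads there cannot be assigned to one gene. The longer transcript (Ensembl ENSMUST00000064187) averaged 3.4 RPKM ± 1.78 (SD, n = 6) in KD 24 h, 3.19 ± 0.823 (n = 6) in NC 24 h, 5.29 ± 0.961 (n = 6) in KD 72 h and 4.72 ± 0.825 (n = 5) in NC 72 h. Its knockdown change was −0.08 at either time (limma, adjusted p = 0.88 at 24 h and 0.75 at 72 h). Between the controls it differed by 0.6 ± 0.2 (adjusted p = 0.088), and Nr1d1 was higher at 72 h by 1.37 ± 0.22 (adjusted p = 0.001).

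**Figure D3:**
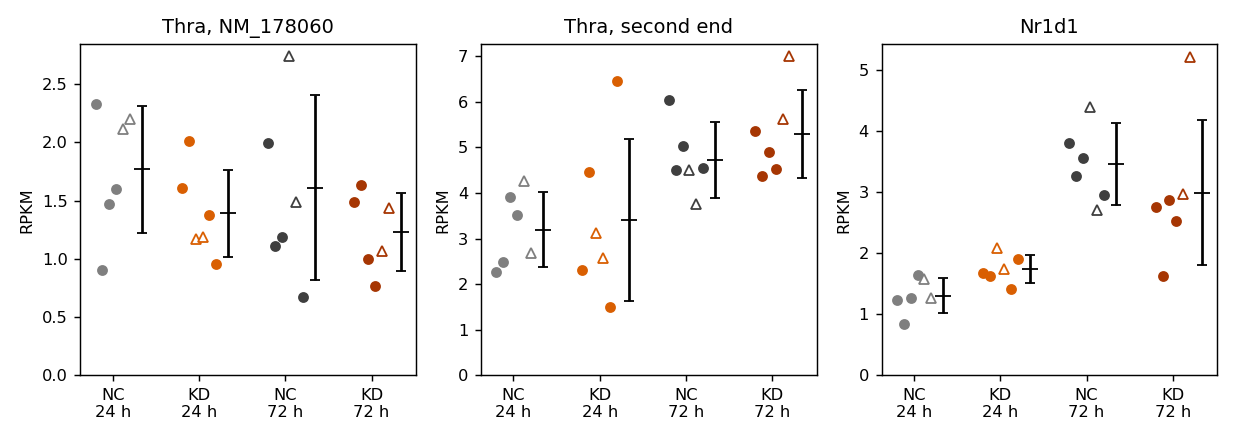
RPKM (vertical axes, linear from 0) in every library by group (horizontal axes) for the Thra entry used here, the longer Thra transcript that shares exon bases with Nr1d1, and Nr1d1; circles and open triangles mark the larger and smaller cluster, bars the mean and SD. The longer Thra transcript averages 3.19 RPKM in NC 24 h and 4.72 in NC 72 h, and Nr1d1 averages 1.3 and 3.45.

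Dio2, the activating deiodinase, was close to the detection limit in every group. The entry read between 0 and 0.214 RPKM, was at 0 in 13 of 24 libraries, and collected 28 reads in all: 7 in KD 24 h, 7 in NC 24 h, 10 in KD 72 h and 4 in NC 72 h. A count of 0 allows a level of up to the equivalent of 3 reads, which is 0.0871 RPKM in the library with most reads (the one that may be counted double) and 0.371 in the shallowest, counting error only. It did not pass the filter on low values, so no change was tested, and the groups overlapped fully. Of the other deiodinases, Dio1 was listed at 0 in every library and Dio3 averaged 0.067 RPKM.

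Transcripts of 6 factors that make or break down the deiodinase were tested, and 1 was higher at 24 h, where 11.1% of all genes tested were higher, and none passed at 72 h. Wsb1, part of the ubiquitin ligase that targets the enzyme, was higher at 24 h, at 26.5 RPKM ± 8.28 (SD, n = 6) against 12.4 ± 3.51 (n = 6), a log2 change of 1.02 ± 0.2 (limma, adjusted p = 0.0033). At 72 h its change was 0.31 ± 0.15 (adjusted p = 0.16). The selenoprotein factors Secisbp2 and Sephs2, the deubiquitinases Usp20 and Usp33 and the ligase March6 did not pass at either time, although on the deposited scale Secisbp2, Usp20 and Wsb1 were called higher at 72 h. Among the 3 carriers of the hormone reported here that were tested (Slc7a5, Slc7a8 and Slc16a10), Slc7a8 was lower at 24 h (−1.01 ± 0.26, limma, adjusted p = 0.013). Of all genes tested, 11.8% were lower at that time. No carrier passed at 72 h.

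Ncor1, the corepressor scaffold, sat below the control by a smaller step whose call was not firm. It ran from 2.28 to 5.81 RPKM in KD 24 h with a median of 3.66, and from 4.07 to 6.87 in NC 24 h with a median of 5.42. It ran from 1.76 to 5.51 in KD 72 h with a median of 3.13, and the samples of NC 72 h read 4.3, 4.73, 4.12, 4.41 and 3.76, so the groups overlapped at both times. The change was −0.68 ± 0.23 at 24 h (limma, adjusted p = 0.042) and −0.65 ± 0.22 at 72 h (adjusted p = 0.047). On the deposited scale without further scaling it was −0.63 (adjusted p = 0.066) and −0.41 (adjusted p = 0.23), so the call rested on the scaling. With voom on recovered reads it was −0.75 (adjusted p = 0.0077) and −0.66 (adjusted p = 0.015). Within the larger cluster it was −0.7 at 24 h (limma, adjusted p = 0.1) and −0.89 at 72 h (adjusted p = 0.031), and within the smaller −0.7 (adjusted p = 0.19) and −0.18 (adjusted p = 0.77). Leaving out 1 library lost it in 9 of 12 cases at 24 h, all but KD replicates 4 and 6 and NC replicate 2, and in 8 of 12 at 72 h, all but KD replicates 5 and 6 and NC replicates 2 and 3. Over those fits the change ran from −0.81 to −0.57 with adjusted p up to 0.092 (limma) at 24 h, and from −0.78 to −0.52 with adjusted p up to 0.088 at 72 h. Of the other RefSeq coding entries, the one of 8852 bases changed by −0.68 (limma, adjusted p = 0.042) and −0.65 (adjusted p = 0.048). The one of 3186 bases changed by −1.3 (limma, adjusted p = 0.06) and −0.65 (adjusted p = 0.24). Ncor1 spans 142.1 kb on chromosome 11 (62316426 to 62458541, minus strand), and of genes from 100 to 200 kb 26.6% were called lower at 24 h and 19.8% at 72 h.

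Of 5 other genes of the corepressor complex tested and reported here, 2 were lower at 24 h, where 11.8% of all genes tested were, namely the genes of the linked proteins TBL1X and TBLR1, Tbl1x (−0.88 ± 0.26, limma, adjusted p = 0.027) and Tbl1xr1 (−0.96 ± 0.2, adjusted p = 0.0046). Tbl1x lost its call without KD replicate 1 or 5 or NC replicate 5 or 6 (−1.04 to −0.74 over the 12 fits without 1 library, limma adjusted p up to 0.061). None of the 5 passed at 72 h, where Tbl1xr1 stood at −0.52 ± 0.2 (limma, adjusted p = 0.081), and none passed the test of the difference between the times. The histone deacetylase Hdac3, which works in this complex, changed by 0.42 ± 0.15 at 24 h (adjusted p = 0.059) and −0.03 ± 0.15 at 72 h (adjusted p = 0.91). The median change over the 5 was −0.22 at 24 h and −0.03 at 72 h, beside −0.01 for all genes at either time.

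Med1, the Mediator subunit that binds the receptors, did not pass at either time. It ran from 8.48 to 16.1 RPKM in KD 24 h with a median of 10.5 and from 11.2 to 14.6 in NC 24 h with a median of 13.0. It ran from 7.0 to 13.9 in KD 72 h with a median of 9.65, and the samples of NC 72 h read 11.5, 11.6, 10.3, 11.0 and 11.5. The control groups were tight and lay inside the wider range of the KD groups at both times. The change was −0.25 ± 0.15 at 24 h (limma, adjusted p = 0.24, 95% interval −0.56 to 0.07) and −0.42 ± 0.18 at 72 h (adjusted p = 0.12, 95% interval −0.82 to −0.03). This entry is 2822 bases long, and the other RefSeq coding entries, of 6518 and 6383 bases, averaged 1.25 and 1.27 RPKM. Each of those changed by −0.09 at 24 h (limma, adjusted p = 0.79) and −0.14 at 72 h (adjusted p = 0.76).

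Among 10 coactivators tested, 1 was lower at each time, no larger a share than that of all genes tested (11.8% at 24 h and 12.9% at 72 h). Ncoa1, the p160 coactivator SRC-1, was lower at 24 h (−1.04 ± 0.19, limma, adjusted p = 0.0022), with 5.41 RPKM ± 1.14 (SD, n = 6) against 10.6 ± 1.06 (n = 6), and its change at 72 h was −0.4 ± 0.15 (adjusted p = 0.078). Ppargc1a, the PGC-1α coactivator of brown fat, was lower at 72 h (−1.27 ± 0.23, adjusted p = 0.0016), at 1.79 ± 0.792 (n = 6) against 3.52 ± 0.173 (n = 5), and its change at 24 h was −0.73 ± 0.26 (adjusted p = 0.056). Of the retinoid X receptors, the partners of TR on DNA, Rxra was lower at 24 h (−1.09 ± 0.24, adjusted p = 0.0064) and at 72 h (−1.35 ± 0.27, adjusted p = 0.0031). Rxrg was lower at 24 h (−0.57 ± 0.15, limma, adjusted p = 0.014) and did not pass at 72 h (−0.39 ± 0.18, adjusted p = 0.13). Between the controls at 72 h and 24 h Rxrg differed by −1.34 ± 0.15 (adjusted p = 0.00011). Rxrb changed by 0.58 ± 0.36 at 24 h (adjusted p = 0.25) and 0.59 ± 0.22 at 72 h (adjusted p = 0.066).

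Thrsp, the gene of Spot 14 and by far the most abundant of the 6 per kilobase, was lower in the knockdown at both times. It ran from 195 to 300 RPKM in KD 24 h with a median of 241, and from 277 to 833 in NC 24 h with a median of 683. It ran from 351 to 780 in KD 72 h with a median of 538, and the samples of NC 72 h read 1570, 1040, 1320, 1500 and 1580. The groups overlapped at 24 h through 2 control libraries, replicates 5 and 6 at 277 and 286 RPKM, both in the smaller cluster, and did not overlap at 72 h. The change was −1.22 ± 0.26 at 24 h (limma, adjusted p = 0.0055) and −1.6 ± 0.17 at 72 h (adjusted p = 2.6e-05), or 42.9% and 32.9% of the control.

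Within the larger cluster the change of Thrsp was −1.65 at 24 h (limma, adjusted p = 0.00013) and −1.75 at 72 h (adjusted p = 7.2e-05). Within the smaller cluster it was −0.42 at 24 h (adjusted p = 0.044) and −1.31 at 72 h (adjusted p = 0.00067). The difference between the times was −0.38 ± 0.34 over all libraries (limma interaction, adjusted p = 0.71, 95% interval −1.08 to 0.33) and −0.89 in the smaller cluster alone (adjusted p = 0.02). In the controls Thrsp was higher at 72 h than at 24 h by 1.38 ± 0.28 (adjusted p = 0.0059), and it was the only 1 of the 5 tested to pass there. Of all genes tested, 9.21% were called in that comparison, in either direction.

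Of 11 other genes known to answer to T3 that were tested, 2 were lower at 24 h and 6 at 72 h, and none was higher, where 11.8% and 12.9% of all genes tested were lower. None of the 11 passed the test of the difference between the times after adjustment (limma interaction), and 7 had an unadjusted p under 0.05, 6 of them with the lower value at 72 h and Cpt1a the other way. Of all 12711 genes in that test, 1563 had an unadjusted p under 0.05. On the deposited scale the count at 72 h was 5 lower, without Gpd2 (−0.45, limma adjusted p = 0.1), and 2 higher, Cpt1a and Atp2a2. Acaca, acetyl-CoA carboxylase, changed by −1.96 ± 0.18 at 24 h (limma, adjusted p = 3.1e-05) and −2.19 ± 0.22 at 72 h (adjusted p = 2e-05). Ucp1 changed by −1.16 ± 0.24 (adjusted p = 0.0047) and −2.36 ± 0.21 (adjusted p = 8.2e-06), and in RPKM stood at 169 ± 72.6 (SD, n = 6) against 692 ± 122 (n = 5) at 72 h. Acly, ATP citrate lyase, and the malic enzyme Me1 were lower at 72 h (−1.25 ± 0.23, adjusted p = 0.0018, and −0.97 ± 0.14, adjusted p = 0.00035). Fasn and Gpd2 also passed at 72 h, whereas Mid1ip1, Cpt1a, Ucp3, Klf9 and Atp2a2 passed at neither time. Klf9, a direct receptor target in many cells, changed by 0.15 ± 0.2 at 24 h (adjusted p = 0.62) and −0.36 ± 0.17 at 72 h (adjusted p = 0.14).

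**Figure D4:**
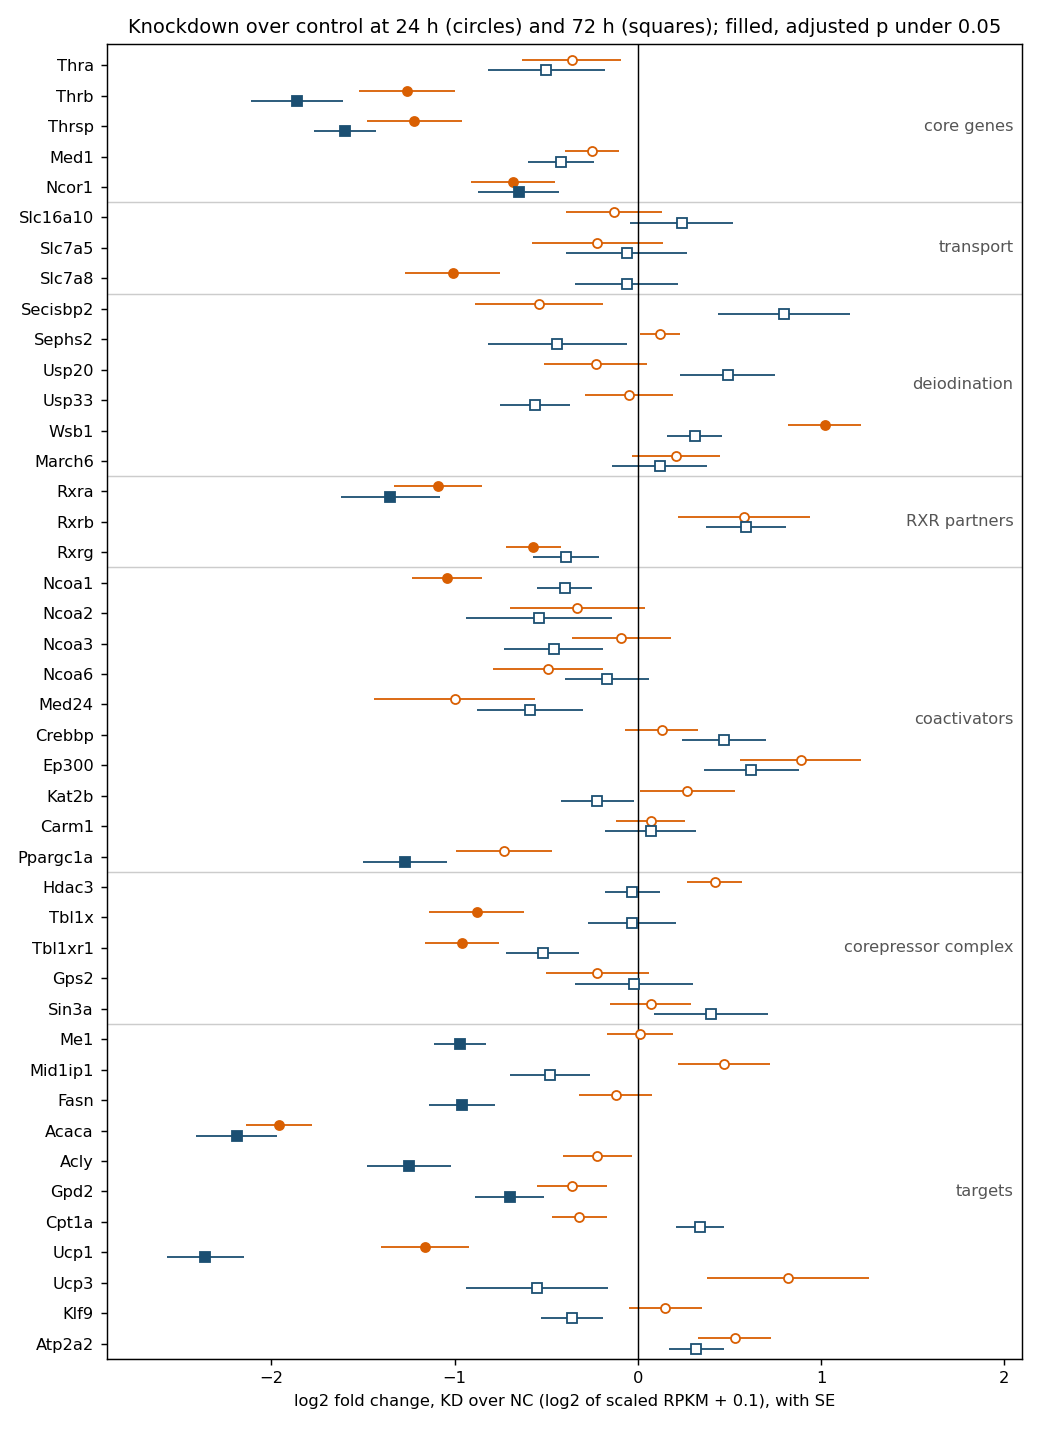
Fitted log2 fold change of KD over NC with its SE (horizontal axis) for the 5 core genes that passed the filter and the pathway genes by role, circles for 24 h and squares for 72 h, filled where the adjusted p was under 0.05. Filled symbols lie to the left of 0 except Wsb1 at 24 h (on the deposited scale, not drawn, 8 pathway genes were higher at 72 h), and Acaca and Ucp1 at 72 h lie farthest left at −2.19 and −2.36.

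Read over the set, 3 of the 5 genes that passed the filter were called lower at each time, Thrb, Thrsp and Ncor1, and none higher, where 11.8% of all genes tested were called lower at 24 h and 12.9% at 72 h. On the deposited scale 2 of them were called at each time, without Ncor1. Over the 38 tested pathway genes outside the 6, 8 were lower and 1 higher at 24 h, and 8 lower and 0 higher at 72 h, where the deposited scale gave 7 lower and 8 higher. The other 5 of the 43 listed (Slco1c1, Crym, Dio1, Dio3 and Hr) did not pass the filter. The median change of the tested pathway genes was −0.17 and −0.29 (−0.11 and −0.05 on the deposited scale), beside −0.01 for all genes at either time. Scaling mattered for the background at 72 h: over all entries 5626 were higher and 6525 lower after scaling, and 13166 higher and 3102 lower on the deposited scale, whose median change was 0.25. None of the 6 passed the test of the difference between the times (limma, 0 of 5 tested), in which 0.252% of all genes were called.

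Finally, the genes whose levels ran most like those of Thrb and Thrsp were sought over 23 samples and 12711 genes. Thrb ran closest to Lgals12, Sfxn1 and Cd1d1, with Pearson r of 0.94, 0.93 and 0.93, and 0.65, 0.54 and 0.53 once group means were removed. Thrsp ran closest to Ucp1, Gstt2 and Ncan, with r of 0.95, 0.93 and 0.9, and 0.79, 0.87 and 0.63 within groups. Thrb and Thrsp had r = 0.41 over all samples and 0.01 within groups. The samples share group, cluster and library depth, so these are descriptions; Dio2 was too low to be compared.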

How the data were processed

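The authors deposited 1 table of RPKM for 168326 transcript entries in 24 libraries of barcoded 3′-end RNA sequencing, mapped in the Genomatix suite (version and genome build not given in the sources used here). Because reads come from transcript ends, dividing by length distorts levels between genes. Whole reads were recovered from the RPKM steps (94.1 to 94.7% of low values whole within 0.05). An entry was tested if it reached 10 reads, taken at median depth, in as many samples as the smaller group holds, and 15 reads over all (0.5 RPKM where no length was recovered). RPKM were scaled by a trimmed mean of log ratios per comparison and tested as log2(RPKM + 0.1), which understates changes of low genes, with limma 3.58.1 (R 4.3.3, intensity trend, tested on simulated data), one fit per time and one over all groups for the interaction. P-values were two-sided and adjusted by Benjamini-Hochberg over all entries, at 0.05. Named pathway genes were up to 4 called per role and time with the largest change, plus Ucp1; others were named after their values were seen. Members and lists were chosen with earlier results of these data known. Same-numbered libraries did not deviate together (mean r −0.07 at 24 h and 0.03 at 72 h), so numbers were not taken as pairs. Groups came from sample titles. Some genes of the pathway lists are not reported here and enter none of the list counts.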

Additional observations from a re-analysis of the deposited data

Results flagged for a closer look

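Of 84 groups tested (4 groups for each of 20 named genes or entries and for the receptor ratio), 5 held a sample farther from the rest than Dixon's 95% limit allows, and chance flags about 1 group in 20. Dio2 in NC 72 h stood at 0.0934 RPKM in the mean of replicates 2 and 3, with the other 4 samples at 0; this rests on 4 reads in all. Nr1d1 in KD 72 h replicate 6 read 5.2 RPKM, against 1.63 to 2.96 in the others. Wsb1 in KD 72 h replicate 5 read 16.0 RPKM, against 22.5 to 26.3. Rxra in NC 24 h replicate 3 read 3.59 RPKM, against 2.18 to 2.58. Ppargc1a in KD 72 h replicate 6 read 3.27 RPKM, against 1.12 to 1.9. None of the 5 core genes tested and none of the named pathway genes differed in its knockdown change between the times by the limma interaction at an adjusted p of 0.05.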

How the results depend on the processing

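The direction of Thrb and Thrsp held at both times under every alternative in which they were tested. Both kept their call there except Thrb at 24 h in the smaller cluster alone. Thrsp has no recovered length and so was not tested with voom on recovered reads. Ncor1 kept its direction but lost its call under 4 of 12 alternatives at 24 h and 4 of 13 at 72 h, beside leaving out replicates. Leaving out each single library was added after seeing the data.

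The number of the 6 genes called at 24 h was 1 in the smaller cluster alone; between 72 h and 24 h in the controls it was 0 with voom on recovered reads, where Thrsp has no recovered length, and in the interaction it was 1 in the smaller cluster. Without each replicate number it was 2 to 3 at 24 h, 2 to 3 at 72 h, 1 to 1 in the controls and 0 to 0 in the interaction. Pathway genes called were 1 (24 h) and 4 (72 h) in the smaller cluster and 15 at 72 h on the deposited scale, with 7 to 11 and 7 to 10 without each replicate number. In the controls they were 3 in the smaller cluster (4 to 9 without each number), and in the interaction 1 on the deposited scale, 4 in the larger and 2 in the smaller cluster (0 to 0).

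Entries called with 1 entry per gene were 2609 at 24 h, 2814 at 72 h, 1074 in the controls and 44 in the interaction, with RefSeq entries only 3655, 3554, 1410 and 49, fewer because fewer were tested. In the smaller cluster they were 1542, 5743, 1743 and 1816. In the interaction they were 774 on the deposited scale, 199 and 245 with pseudocounts of 0.5 and 1, 184 with replicates 2 and 3 apart, 60 without the intensity trend and 874 in the larger cluster; the cause was not tested. Without each replicate number they ran from 6261 to 11643, 7708 to 10578, 3239 to 4028 and 5 to 126.

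A replicate block left entries called at 2900 in the controls and 28 in the interaction, and in that fit Ncor1 at 72 h lost its call (−0.66, adjusted p = 0.11). Replicate numbers were not taken as pairs. The receptor ratio at 72 h, paired by number over 5 pairs, shifted by −1.46 with an exact sign-flip p of 0.062, the smallest that design allows. Without each number the ratio shift ran from −1.03 to −0.53 at 24 h and from −1.58 to −1.06 at 72 h.

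Interaction values near 0 turned sign on the deposited scale for Thra (0.04) and Med1 (0.01) and in the larger cluster for Ncor1 (−0.2). Without single replicates or libraries Thra ran from −0.59 to 0.18 and Ncor1 from −0.11 to 0.24, and the control difference of Thra ran from −0.4 to 0.14; no one of these passed the test. Depth limits Thra and Dio2 most.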
